A study of Mus musculus with 6 samples.

Results

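The receptors of the bone morphogenetic protein (BMP) pathway were followed in whole mouse lung: the type 2 receptors Bmpr2, Acvr2a and Acvr2b, the type 1 receptors Bmpr1a, Bmpr1b, Acvr1 and Acvrl1, and the co-receptor endoglin (Eng). A probe set, the group of array probes that reads a transcript, was included where the platform annotation gave it exactly 1 gene symbol and that symbol was among these 8. This gave 24 of the 45037 probe sets in the table, for 8 of the 18193 genes with such a probe set, and each is described apart. A further probe set whose symbols were both Acvr2a and Orc4 was left out.

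The study used 6 arrays, each hybridized with lung RNA pooled from 3 mice, in 3 groups of 1 female and 1 male pool, so the spread between single mice was not measured. Lungs with the inducible SM22-dnBMPR2 transgene had it activated for 1 week or for 8 weeks. It encodes a dominant-negative form of BMPR2 under the smooth muscle promoter SM22. Control mice carried the reverse tetracycline transactivator (rtTA) without it, according to the series description. The label of the male control pool named SM22-rtTA alone, while that of the female control pool gave the FVB/N strain and no transgene. Strain was not stated for the other pools, nor age for any, and no activation time was given for the controls, so these cannot be told apart from the transgene. The transgenic mice all had raised right ventricular pressure when they were killed. Where the labelled sex could be checked it held: the X-inactivation RNA Xist had a log2 intensity of 9.76 to 11.05 in female and 5.07 to 5.80 in male pools. The Y-linked gene Eif2s3y was at the floor of 3.95, set for dim values, in the 3 female pools, against 9.38 to 9.78 in the 3 male pools. Lung identity was clear from the alveolar gene Sftpc, at 13.17 to 13.26, and the airway gene Scgb1a1, at 13.36 in all 6 pools. These are quantile normalized values, in which equal ranks on different arrays become equal values. The equal Scgb1a1 values therefore do not show equal measured intensities. The median deposited intensity was 60.22 and 57.1 in the 1 week pools, 50.49 and 52.92 in the 8 week pools, and 63.41 and 61.43 in the controls.

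BMP ligands signal through complexes of type 2 and type 1 receptors. The type 2 receptor phosphorylates and switches on the type 1 receptor, which then phosphorylates Smad1, Smad5 and Smad9. Endoglin presents the ligands to this complex, mainly on endothelium. Inherited mutations of BMPR2 cause pulmonary arterial hypertension in people, and mutations of ACVRL1 and ENG cause hereditary haemorrhagic telangiectasia.

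Of the 24 probe sets, 21 lay above the filter on dim signals, a mean log2 intensity over 5.19, and at least 1 probe set remained for each of the 8 genes. The others were 2 probe sets of Bmpr1b and 1 of Bmpr1a. Bmpr1b 1422872_at was at the floor of 3.95 in 3 pools and no higher than 4.70, and Bmpr1b 1443720_s_at was at the floor in 4 pools and no higher than 4.44. Bmpr1a 1445413_at had values of 5.85 and 3.95 at 1 week, 4.97 and 4.83 at 8 weeks, and 6.38 and 4.34 in controls, female pool first in each group. Values throughout are log2 intensities after quantile normalization, and a difference of 1 is a 2-fold difference. Since brightness differs between probes, levels are compared between pools and never between probe sets.

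**Figure D1:**
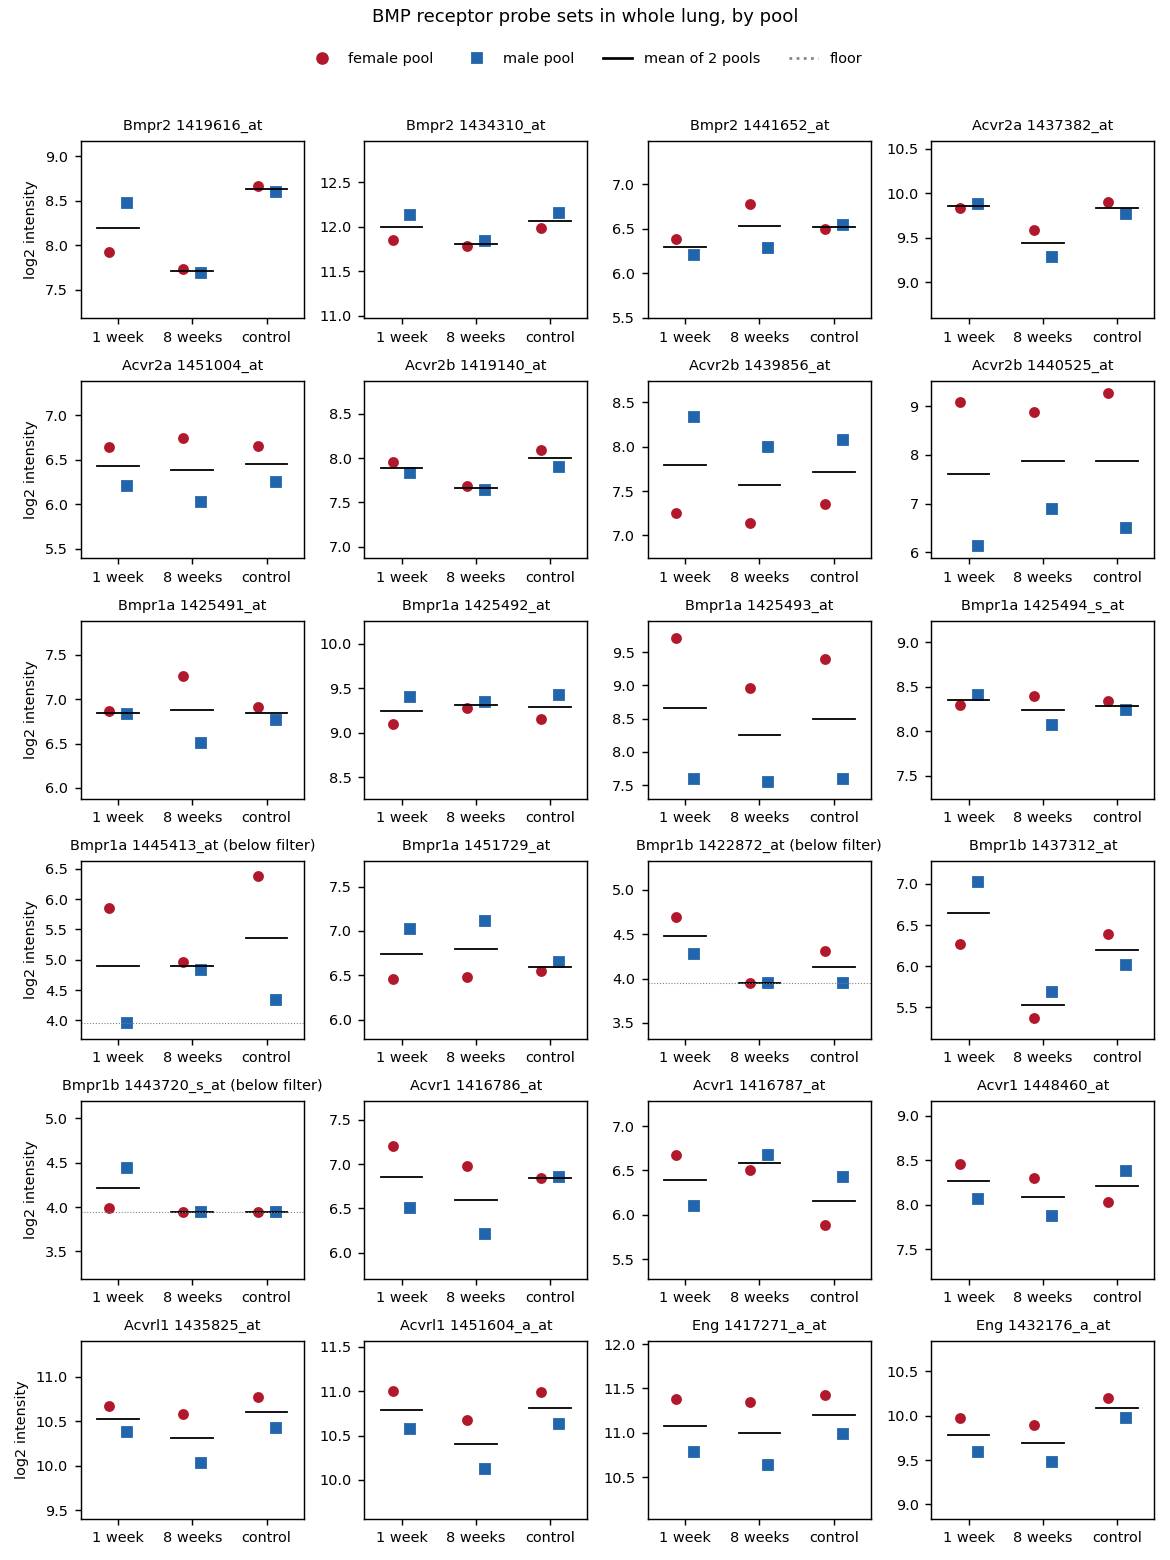
Log2 intensity of all 24 receptor probe sets in the female pool (circle) and the male pool (square) of the 1 week, 8 week and control groups, with the mean of the 2 pools as a line and the floor of 3.95 dotted where it falls in range. Bmpr2 1419616_at is lowest at 8 weeks in both sexes, and Acvr2b 1440525_at and Bmpr1a 1425493_at separate by sex in every group.

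After 8 weeks of activation most receptor signals lay below those of controls, with Bmpr2 at its 1419616_at probe set the lowest relative to control, but no single receptor probe set passed the test across all genes. In limma with group and sex as terms, 0 of 21 passed at an adjusted p of 0.05, where 0.631% of the 26763 probe sets tested did. Of the 21, 0 passed with unmoderated least squares and 2 with trend and robust moderation. With unadjusted p below 0.05, 4 receptor probe sets were lower (Bmpr2, Acvr2a, Acvrl1 and Eng, 1 each) and 0 were higher, against 11.2% and 11.9% of all probe sets. The fitted change was below 0 for 16 of 21, where 46.1% of all probe sets lay below 0. The receptors had a median change of -0.21, against 0.03 over all probe sets. The count below 0 depended on scaling, at 20 of 21 with the values as deposited and 13 of 21 with arrays centred on their medians, which moved the median of all probe sets to -0.13 and 0.14. Set against the median of all probe sets, 18 of 21 were lower under each of the 3 scalings. The 21 probe sets read 8 genes, so these counts are not of independent members. In the chosen processing the probe sets of Bmpr2, Bmpr1a and Acvr1 lay on both sides of 0. Those of the other genes were all below 0, with Bmpr1b read at a single probe set. Of these, Acvr2b 1440525_at was at -0.0020 and Acvr2a 1451004_at at -0.06, with the sexes on opposite sides of 0 at both. Both 8 week pools lay below both controls for 6 of 21 receptor probe sets, a pattern met by 18.8% of all probe sets, and above both controls for 1 of 21, against 23% of all. Whole lung was measured, so fewer cells of a type and less RNA per cell cannot be told apart.

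**Figure D2:**
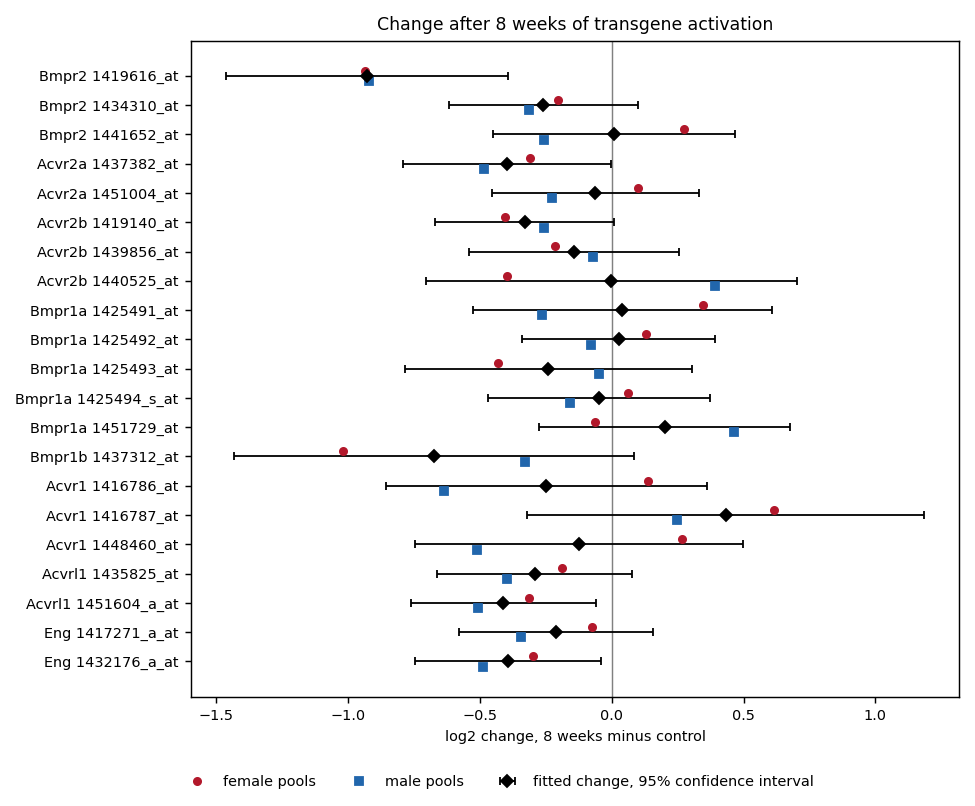
Log2 change at 8 weeks (8 weeks minus control) of the 21 receptor probe sets above the filter: the fitted change with its 95% confidence interval (diamond), the change between female pools (circle) and that between male pools (square). Bmpr2 1419616_at stands at -0.93 with both sexes close together, while at 1 or more probe sets of Bmpr2, Acvr2a, Acvr2b, Bmpr1a and Acvr1 the sexes lie on opposite sides of 0.

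Bmpr2 is the receptor whose dominant-negative form the transgene encodes, and its 3 probe sets differed in what they showed. Bmpr2 1419616_at, annotated to a RefSeq mRNA, read 7.92 in the female and 8.47 in the male pool at 1 week, 7.73 and 7.68 at 8 weeks, and 8.67 and 8.60 in controls. All 4 transgenic pools lay below both controls, and both 8 week pools below both 1 week pools. Of the 21 receptor probe sets it alone had all 4 transgenic pools below the controls. A count of 1 of 21 is near the share of 6.28% among all probe sets. At 8 weeks the mean was 7.71 ± 0.03 against 8.63 ± 0.05 in controls (SD, n = 2 pools each), 1.90-fold lower. The log2 change was -0.93 ± 0.21 (SE), with a 95% interval of -1.46 to -0.39 and an adjusted p of 0.107. It was -0.94 between female pools and -0.92 between male pools. As deposited, the intensities were 205 and 189 at 8 weeks and 425 and 401 in controls. With trend and robust moderation of the variances the probe set passed at 8 weeks (adjusted p = 0.0292), and over all alternatives its adjusted p lay between 0.0292 and 0.341.

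At 1 week the same Bmpr2 probe set differed from control by -0.44 ± 0.21 (adjusted p = 0.917), with -0.75 between female pools and -0.13 between male pools. Without the female 1 week pool it stood at -0.13, and without the male 1 week pool at -0.74. The 8 week and 1 week groups differed by -0.49 ± 0.21 (adjusted p = 0.297), a value of -0.18 without the male 1 week pool and -0.80 without the female one. Both transgenic groups together stood at -0.68 ± 0.18 against control (adjusted p = 0.264). The order of the group means was therefore control, 1 week and 8 weeks from high to low, and no neighbouring pair in it passed.

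Bmpr2 1434310_at read 11.85 and 12.14 at 1 week, 11.79 and 11.84 at 8 weeks, and 11.99 and 12.15 in controls. The 8 week pools again lay below both controls, by less, with a log2 change of -0.26 ± 0.14 and an interval of -0.62 to 0.10. Bmpr2 1441652_at read 6.39 and 6.21 at 1 week, 6.77 and 6.28 at 8 weeks, and 6.50 and 6.54 in controls, and its 8 week pools lay on either side of the controls. Its fitted change of 0.01 had an interval of -0.45 to 0.47. This interval overlaps that at 1419616_at, -1.46 to -0.39, without reaching the fitted value there of -0.93. The sources used here do not give which of these probe sets, if any, can also read the transgene's RNA, so they do not check its expression.

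Both Eng probe sets and some of Bmpr2, Acvr2b and Acvrl1 were lower in all 4 transgenic pools than in their same-sex control. The sequence upstream of Bmpr2 is shown because the gene had the lowest receptor value against control at 8 weeks. That of Eng is shown because both of its probe sets had this pattern, whose share among all probe sets was not counted. Each is the 250 bases before the transcription start on the plus strand of GRCm38.p6, from RefSeq, at chr1:59764029-59764278 for Bmpr2 and chr2:32646345-32646594 for Eng. Capitals mark AGGAAG or its reverse complement CTTCCT, a core bound by ETS factors of endothelium and other tissues. They also mark GGGCGG or its reverse complement CCGCCC, the GC box bound by Sp1.
Bmpr2: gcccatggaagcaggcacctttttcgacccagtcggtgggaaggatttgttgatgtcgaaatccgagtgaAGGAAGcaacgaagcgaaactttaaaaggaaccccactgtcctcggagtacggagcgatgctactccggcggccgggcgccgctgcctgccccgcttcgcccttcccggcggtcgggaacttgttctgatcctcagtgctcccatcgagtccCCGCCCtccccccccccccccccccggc
Eng: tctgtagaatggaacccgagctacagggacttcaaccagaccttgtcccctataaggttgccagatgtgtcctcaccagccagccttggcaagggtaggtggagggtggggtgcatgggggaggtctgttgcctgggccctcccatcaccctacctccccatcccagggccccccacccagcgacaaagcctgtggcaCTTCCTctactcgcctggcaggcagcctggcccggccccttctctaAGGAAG
The Bmpr2 window held 1 AGGAAG and 1 GC box, and the Eng window 2 AGGAAG and 0 GC boxes, on either strand. AGGAAG occurred in 29.5% and the GC box in 32.7% of the 32851 RefSeq promoter windows of this length. Promoters were listed for 7 of the 8 genes, Acvrl1 being the other. The windows of Acvr2a, Acvr2b, Bmpr1a and Acvr1 held 2, 3, 4 and 6 GC boxes and no AGGAAG, and the 3 Bmpr1b windows held neither. A match describes these letters and does not show binding.

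The activin type 2 receptors Acvr2a and Acvr2b can stand in for Bmpr2 in binding BMPs and also bind activins. Acvr2a 1437382_at read 9.83 and 9.88 at 1 week, 9.59 and 9.28 at 8 weeks, and 9.90 and 9.77 in controls. Both 8 week pools lay below all 4 other pools, while the 1 week pools overlapped the controls. Its change at 8 weeks was -0.40 ± 0.15 against control (adjusted p = 0.213), or -0.26 without the male 8 week pool, and -0.42 ± 0.15 against 1 week (adjusted p = 0.249). Acvr2a 1451004_at did not repeat this, at 0.10 between female and -0.23 between male pools at 8 weeks.

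Acvr2b 1419140_at read 7.95 and 7.83 at 1 week, 7.69 and 7.65 at 8 weeks, and 8.09 and 7.90 in controls. The 8 week pools were the 2 lowest of the 6, with a change of -0.33 ± 0.13 against control (adjusted p = 0.226). Its other 2 probe sets are described below with the sexes, because the difference between female and male pools exceeded any difference between groups.

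Among the type 1 receptors, Bmpr1a, which carries much of BMP2 and BMP4 signalling, showed small differences between groups. Bmpr1a 1425492_at read 9.09 and 9.40 at 1 week, 9.28 and 9.34 at 8 weeks, and 9.15 and 9.42 in controls. The groups overlapped, and the change at 8 weeks was 0.03 with an interval of -0.34 to 0.39. Over the 5 filtered Bmpr1a probe sets the fitted changes at 8 weeks ran from -0.24 to 0.20, and at 1 week from -0.04 to 0.16.

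Bmpr1b, a type 1 receptor for BMPs and growth differentiation factors, could be followed on 1 probe set. Bmpr1b 1437312_at read 6.27 and 7.03 at 1 week, 5.37 and 5.68 at 8 weeks, and 6.39 and 6.01 in controls. Both 8 week pools lay below the other 4, and the male 1 week pool stood above all others. The 8 week values were near the filter of 5.19. As deposited they were 37.35 and 47.42, below their array medians of 50.49 and 52.92. The change was -0.67 ± 0.29 at 8 weeks against control (adjusted p = 0.252), -1.12 ± 0.29 at 8 weeks against 1 week (adjusted p = 0.177) and 0.45 ± 0.29 at 1 week against control (adjusted p = 0.944). Without the male control, the 1 week value was -0.0073 and the 8 week value -1.13. The 8 week value without the female control was -0.22. Against 1 week, the 8 week value was -0.73 without the male 1 week pool and -1.52 without the female one.

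Acvr1, the type 1 receptor also called ALK2, had transgenic values on different sides of control in the sexes, a difference that did not pass. Acvr1 1448460_at read 8.46 at 1 week and 8.30 at 8 weeks against 8.03 in control in female pools. In male pools it read 8.07 at 1 week and 7.87 at 8 weeks against 8.38 in control. Both transgenic female pools were thus above, and both transgenic male pools below, the control of their sex. Acvr1 1416786_at showed the same split, with 7.20 and 6.97 against 6.84 in female pools, and 6.51 and 6.22 against 6.85 in male pools. At Acvr1 1416787_at the females had 6.68 and 6.50 against 5.89, while the males had 6.10 and 6.67 against 6.42. Each sex had a single control pool, and the labels of these pools differed. A difference between the control pools therefore cannot be told apart from a difference in response. The difference in response, tested as a transgene by sex interaction, was 0.76 ± 0.31, 0.74 ± 0.35 and 0.74 ± 0.44 on these 3 probe sets. None passed in limma (adjusted p = 1.00 for each, unadjusted p of 0.0629, 0.0922 and 0.160), and 0% of all probe sets did. A split of this kind, both transgenic pools of a sex on the same side of control and the sexes on opposite sides, was found at 3 of 21 receptor probe sets (these first 2 and Bmpr1a 1451729_at), against 16.8% of all, a share near the background. In the same interaction, macrophage markers stood above 0 at 8 of 8, with a median of 0.82, and cardiac muscle markers below 0 at 8 of 8, with a median of -0.80, and 0 of either passed. Their part in the Acvr1 values was not tested. Across groups, 1416787_at was the receptor probe set whose 8 week pools were both above both controls, at 0.43 ± 0.29 (adjusted p = 0.418). That value was 0.06 without the female control and 0.80 without the male one.

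Acvrl1, the endothelial type 1 receptor also called ALK1, binds BMP9 and BMP10. Acvrl1 1451604_a_at read 11.00 and 10.58 at 1 week, 10.67 and 10.13 at 8 weeks, and 10.99 and 10.63 in controls. Within each sex the 8 week pool was the lowest, while the 1 week pool differed from control by 0.01 in females and -0.06 in males. The change was -0.41 ± 0.13 at 8 weeks against control (adjusted p = 0.175), 1.33-fold lower, and -0.39 ± 0.13 against 1 week (adjusted p = 0.239). With trend and robust moderation the first of these passed (adjusted p = 0.0403). Acvrl1 1435825_at gave -0.29 ± 0.14 at 8 weeks (adjusted p = 0.291), with -0.19 between female and -0.40 between male pools, and -0.17 without the male 8 week pool.

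Endoglin, the co-receptor for the same ligands, had values below the control of the same sex in all 4 transgenic pools on both of its probe sets, without passing. Bmpr2 1419616_at and 1434310_at, Acvr2b 1419140_at and Acvrl1 1435825_at also lay below the control of the same sex in all 4. The share of all probe sets with this pattern was not counted. Eng 1432176_a_at read 9.98 and 9.59 at 1 week, 9.90 and 9.48 at 8 weeks, and 10.20 and 9.97 in controls. Within each sex the order was control, 1 week and 8 weeks from high to low. Its change was -0.30 ± 0.13 at 1 week (adjusted p = 0.910), -0.39 ± 0.13 at 8 weeks (adjusted p = 0.184) and -0.35 ± 0.12 for both together (adjusted p = 0.322). Eng 1417271_a_at had the same order within each sex and smaller differences, at 11.38 and 10.78 at 1 week, 11.35 and 10.64 at 8 weeks, and 11.42 and 10.99 in controls. Its change at 8 weeks was -0.21 ± 0.14 (adjusted p = 0.418), and leaving out 1 pool gave -0.10 (male control), -0.12 (male 8 week pool) and -0.32 (female control).

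Beside the Acvrl1 and Eng values stand those of endothelial markers. At 8 weeks 11 of 12 endothelial markers had a change below 0 and 0 passed, with a median of -0.18. Their summed normalized intensity was 23996 to 25526 at 8 weeks and 27455 to 29943 in controls. Smooth muscle markers, from the cells in which the SM22 promoter is active, had a median of -0.43, with 8 of 9 below 0 and 0 passing. Their sum was 8626 to 9735 at 8 weeks and 10816 to 13240 in controls. At 1 week the smooth muscle markers went the other way, with a median of 0.26, 8 of 9 above 0, 0 passing and a sum of 14019 to 14874. Macrophage markers summed to 13091 to 14114 at 8 weeks and 5501 to 8069 in controls, and neutrophil markers to 10703 to 11526 at 8 weeks and 3874 to 3939 in controls, with 2 of 7 (Mmp8 and Mmp9) higher and passing. Cardiac muscle markers summed to 2076 to 4435 at 8 weeks and 9151 to 9283 in controls. No marker of these lists was at the floor on all 6 arrays. The part of these shifts in the receptor values was not tested.

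At 1 week no receptor probe set passed: 0 of 21, where 0% of all probe sets did, and 0 had an unadjusted p below 0.05 where 5.53% of all probe sets did. The receptor changes at 1 week ran from -0.44 to 0.45 with a median of -0.02, against a median of 0.00 over all probe sets. Both 1 week pools lay below both controls at 2 of 21, both of Bmpr2, where 11% of all probe sets did. Between 8 weeks and 1 week 0 of 21 receptor probe sets passed, against 0% of all, and 3 were lower with an unadjusted p below 0.05 (Bmpr1b, Acvr2a and Acvrl1) where 9.19% of all were. Both 8 week pools lay below both 1 week pools at 5 of 21, against 17.7% of all. Both transgenic groups against control also gave 0 of 21, against 0% of all, with Bmpr2 and Eng lower at an unadjusted p below 0.05 where 7.06% of all probe sets were.

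The largest differences among receptor signals ran between female and male lungs, and they belonged to particular probe sets of Acvr2b and Bmpr1a and not to those genes as a whole. In limma, 3 of 21 receptor probe sets passed for female against male, where 8.39% of all probe sets did. Acvr2b 1440525_at read 9.09 in the female and 6.12 in the male pool at 1 week, 8.88 and 6.89 at 8 weeks, and 9.27 and 6.50 in controls. Every female pool was at least 1.99 above the male pool of its group. It was 5.98-fold higher in females, a log2 difference of 2.58 ± 0.22 (adjusted p = 0.0137), with group ratios of 7.84 at 1 week, 3.97 at 8 weeks and 6.86 in controls.

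Acvr2b 1439856_at went the other way. It read 7.25 and 8.34 at 1 week, 7.14 and 8.00 at 8 weeks, and 7.36 and 8.07 in controls, female pool first. The difference, female minus male, was -0.89 ± 0.12 (adjusted p = 0.0290), and the female pool was lower in 3 of 3 groups. The third Acvr2b probe set, 1419140_at, which is annotated to a RefSeq mRNA, differed by 0.12 ± 0.11 (adjusted p = 0.494), with an interval of -0.16 to 0.40. The 3 probe sets of this gene therefore placed female lungs above, below and close to male lungs.

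Bmpr1a 1425493_at read 9.72 and 7.59 at 1 week, 8.96 and 7.55 at 8 weeks, and 9.39 and 7.60 in controls. The male values lay between 7.55 and 7.60 in the 3 groups, and each female pool was at least 1.41 higher. The female value was 3.43-fold the male one, a log2 difference of 1.78 ± 0.17 (adjusted p = 0.0159). The other 4 filtered Bmpr1a probe sets differed by -0.43 to 0.31 and did not pass. Among them 1451729_at was the lowest in females, at -0.43 ± 0.15 (adjusted p = 0.141).

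These 3 calls were lost with no filter on dim probe sets (adjusted p of 0.0884 to 0.0923) and with unmoderated least squares (0.178 to 0.181), each at the same fitted difference. Leaving out a pool also removes its group from the sex comparison, and 1440525_at and 1425493_at then passed without either 8 week pool but not without a control or 1 week pool (adjusted p up to 0.111), while 1439856_at passed in none of the 6 such fits (0.0576 to 0.179).

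**Figure D3:**
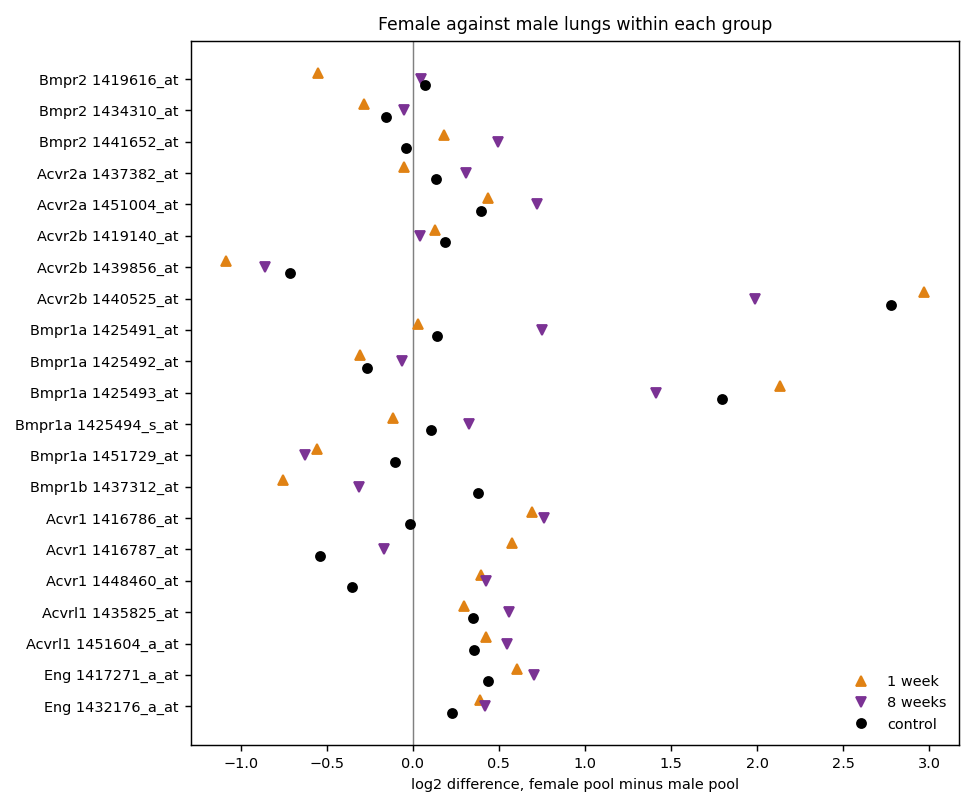
Log2 difference between the female and the male pool (female minus male) within the 1 week (upward triangle), 8 week (downward triangle) and control (circle) groups for the 21 receptor probe sets above the filter. Acvr2b 1440525_at and Bmpr1a 1425493_at lie far to the right in all 3 groups, Acvr2b 1439856_at to the left, and the Acvrl1 and Eng probe sets lie right of 0 in all 3.

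The endothelial receptors were higher in female lungs on all 4 of their probe sets in 3 of 3 groups, without passing. Eng 1417271_a_at had 11.35 to 11.42 in the 3 female pools and 10.64 to 10.99 in the 3 male pools, with no overlap. The difference was 0.58 ± 0.12 (adjusted p = 0.0515), and it passed under 6 of 16 alternatives, where the adjusted p was as low as 0.00318. Eng 1432176_a_at differed by 0.35 ± 0.11 (adjusted p = 0.122), and its ranges in the sexes overlapped. Acvrl1 1451604_a_at and 1435825_at differed by 0.44 ± 0.11 (adjusted p = 0.0779) and 0.40 ± 0.12 (adjusted p = 0.101). Acvr2a 1451004_at was also higher in every female pool, by 0.52 ± 0.12 (adjusted p = 0.0716). In all, 7 of 21 receptor probe sets had the 3 female pools above the 3 male pools, against 13.2% of all probe sets, and 3 of 21 had them below, against 17.2%. Endothelial markers also summed higher in the female pool of 3 of 3 groups, with 10 of 12 markers above 0, a median of 0.18 and 0 passing. Smooth muscle markers had a median of 0.27, with 8 of 9 above 0. The part of these in the receptor differences was not tested.

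Other genes of the pathway, taken from lists of ligands, antagonists, co-receptors, other receptors, Smads, regulators and targets, gave 0 passing genes at 8 weeks in either direction. The list of BMP ligands, which also held the activin subunits Inhba (-0.08) and Inhbb (-0.40), had a median change of -0.24 over 8 measured genes. Bmp6 at -0.71 ± 0.20 and Bmp4 at -0.58 ± 0.16 were lowest and Bmp2 at 0.54 ± 0.13 highest. The 6 antagonists, which bind ligands or block their access, had a median of -0.06, with Fst at -0.51 ± 0.41 and Bmper at -0.26 ± 0.17 farthest from 0. The Fst value joined 0.23 between female and -1.24 between male pools. Co-receptors and decoys had a median of -0.19 over 6 genes, with the repulsive guidance co-receptor Hjv at -0.88 ± 0.38 and betaglycan (Tgfbr3) at -0.51 ± 0.16. Hjv differed by -1.66 between female and -0.10 between male pools. The 4 other receptors of the family had a median of 0.19. Amhr2, the receptor for anti-Müllerian hormone, was at 0.58 ± 0.31, with 0.10 between female and 1.05 between male pools. The TGF-beta type 1 receptor Tgfbr1 was at 0.46 ± 0.14.

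Downstream of the receptors, the 6 Smads had a median of -0.24, with the inhibitory Smad6 at -0.82 ± 0.17 (adjusted p = 0.101) and Smad7 at -0.38. The 12 BMP target genes had a median of -0.11, from the Id family member Id4 at -1.03 ± 0.21 (adjusted p = 0.0988) to the transcription factor Atoh8 at 0.72. These lists share genes: Smad6, Smad7 and Smad9 are also counted among the Smads, and Bambi among the co-receptors and decoys. Regulators of the receptors had a median of -0.09 over 7 genes, with the ubiquitin ligase Smurf1 at 0.52 and the phosphatase subunit Ppp1r15a at -0.34. The median over all probe sets was 0.03. At 1 week 0 genes of these lists passed. Between the sexes, follistatin (Fst), an activin and BMP antagonist, was lower in females (-1.87 ± 0.33, adjusted p = 0.0433), as was Id2 (-0.67 ± 0.11, adjusted p = 0.0363), and Msx1 was higher (1.76 ± 0.27, adjusted p = 0.0344).

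**Figure D4:**
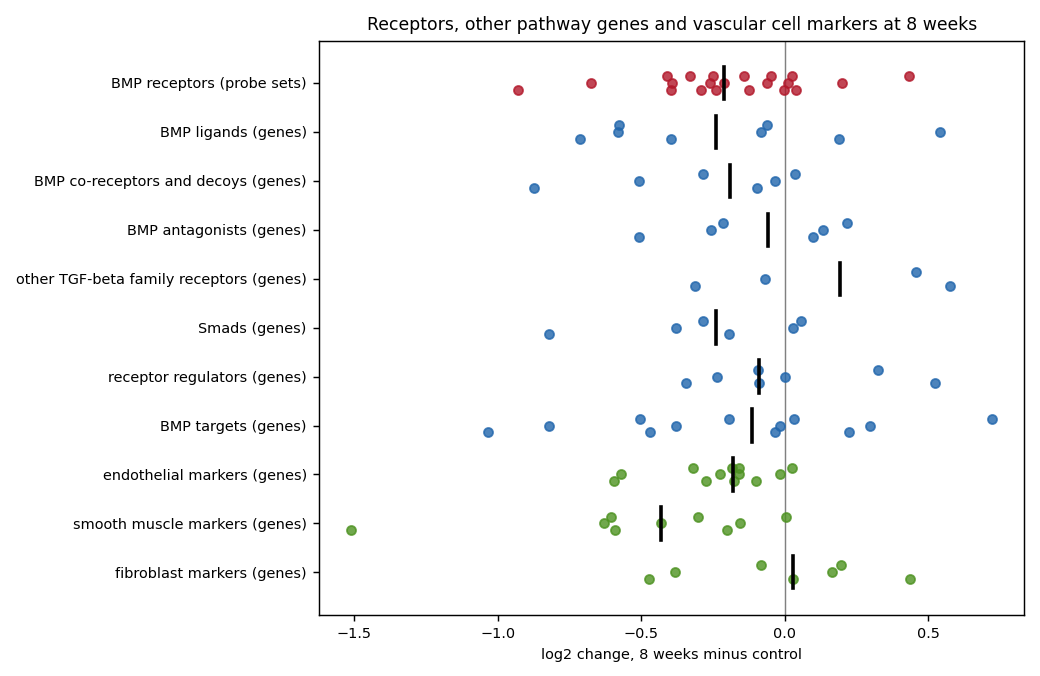
Log2 change at 8 weeks (8 weeks minus control) for the 21 receptor probe sets (red), the genes of 7 pathway lists (blue) and those of 3 cell marker lists (green), each gene at its brightest filtered probe set, with a bar at the median of each row. The receptor median of -0.21 lies near those of the BMP ligands with activin subunits (-0.24), the Smads (-0.24) and the endothelial markers (-0.18). It is taken over probe sets, several for some genes, while each list counts a gene once, so these medians are of unlike units. Smad6, Smad7, Smad9 and Bambi are each shown among the targets and in another list.

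Pattern likeness over the 6 pools was measured as the root mean square difference between log2 values centred on each probe set's own mean, and it is given as a description. Nearest to Bmpr2 1434310_at were Lrig2 (0.028), Apbb2 (0.033) and Zfp438 (0.033). Acvr2a 1437382_at was closest to Dag1 (0.019), Mid2 (0.033) and Rbms3 (0.040), and Acvr2b 1419140_at to Cog2 (0.021), Oga (0.023) and Man2c1 (0.023). For Acvrl1 1451604_a_at these were Anapc1 (0.030), Mlxip (0.045) and Vdac1 (0.047), and for Eng 1417271_a_at they were Acbd4 (0.050), Klf12 (0.051) and Bbs4 (0.054). Near Bmpr1b 1437312_at stood Itih2 (0.036), then Myb and Sbspon at 0.13. The set for Bmpr1a 1425492_at was Cd164, Tmed7 and Cnn3 (0.026 to 0.029), and that for Acvr1 1448460_at was Ranbp6, Scaf11 and Hfe (0.035 to 0.044).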

How the data were processed

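Lung RNA of 6 pools was measured on Affymetrix arrays. The authors deposited an intensity for each probe set on a linear scale, from 10 to 11513 per the values. How they summarised and scaled the probes is not given in the sources used here. Gene names came from the platform annotation, in which 34945 probe sets carried 1 symbol, 932 several and 9160 none.

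Arrays were quantile normalized. Values under the 20th percentile (15.5) were set to it, log2 was taken, and the 26763 probe sets whose mean log2 exceeded the 40th percentile of all values were tested. Each was fitted in limma 3.58.1 (R 4.3.3) over the 6 arrays, with terms for group and sex (2 residual and 2.77 prior degrees of freedom). The interaction came from a model of transgene (both durations) by sex. The Benjamini-Hochberg adjustment ran over all tested probe sets within a comparison, with a threshold of 0.05, and 6 comparisons were made. No group held 2 pools of the same sex, so the spread in the fit mixes differences between pools with differences in response between the sexes. The arrays, 2 a group, limit the precision. Fitting was tested on simulated data.

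Listed pathway and marker genes were read at the brightest probe set with 1 symbol. Every receptor probe set was described. Listed genes were named where they passed or, otherwise, where they were among the 2 farthest from 0, and likeness names the 3 nearest genes, without predicted or clone-named ones. Bmp2 and Atoh8 were named beside these after their values were seen. Members and lists were chosen with earlier results of these data known. Alternatives covered the scaling, the floor, the filter, the sex term, the arrays and the variance settings, and each pool was left out in turn. Plots used matplotlib 3.10.9 in Python 3.11.15.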

Additional observations from a re-analysis of the deposited data

Results flagged for a closer look

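Transgenic values stood on opposite sides of control in female and male pools at 3 receptor probe sets, with both transgenic pools of a sex on the same side. Each sex had a single control pool, and the labels of these pools differed. A difference between the control pools therefore cannot be told apart from a difference in response. The transgene by sex interaction was 0.74 at Acvr1 1416786_at and 0.76 at Acvr1 1448460_at, with females above and males below their controls. It was -0.49 at Bmpr1a 1451729_at, where transgenic females stood at -0.08 and -0.06 from their control and transgenic males at 0.37 and 0.46 from theirs. Macrophage markers had an interaction above 0 at 8 of 8, with a median of 0.82, and cardiac muscle markers below 0 at 8 of 8, with a median of -0.80, and their part in these values was not tested. None of these receptor or marker values passed in limma (adjusted p = 1.00 for the receptors), and 3 of 21 receptor probe sets compares with 16.8% of all probe sets that were split in this way.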

How the results depend on the processing

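Of 552 values of named receptor probe sets under 18 alternatives, 518 kept their direction and their side of the threshold, 12 newly passed, 20 no longer passed and 2 changed sign. The sign changed without the male control, for Bmpr1b 1437312_at at 1 week (-0.0073) and Acvr1 1416786_at at 8 weeks (0.12). With each pool left out in turn the first ran from -0.0073 to 0.91 and the second from -0.62 to 0.12. The number of receptor probe sets passing stayed at 0 for 1 week, 8 weeks against 1 week, both durations together and the interaction under every alternative run. For 8 weeks against control it was 0 except with trend and robust moderation, where 2 passed, Bmpr2 1419616_at and Acvrl1 1451604_a_at. For female against male, 3 passed in the chosen processing, 4 each as deposited, with arrays centred, with log2(value + 16) and among probe sets with 1 symbol, 5 with the filter at the 60th percentile, 7 with trend and robust moderation, 0 with no filter or with least squares, and 0 to 2 with a pool left out. The cause was not tested, except that a left-out pool removes its group from the sex comparison.

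Counts over all probe sets moved more. For 8 weeks against control, 169 passed, against, each filtered anew, 452 as deposited and 702 with arrays centred, then 0 with the floor at the 40th percentile, 596 with log2(value + 16), 541 with the filter at the 60th percentile, 1 among probe sets with 1 symbol, 1891 with trend and robust moderation, 0 with no filter, no sex term, only the compared arrays or least squares, and 0 to 1010 with a pool left out (1010 without the male 8 week pool). Over the same 26763 probe sets, without filtering again after rescaling, the split of calls was 57 higher and 112 lower, against 77 and 370 as deposited and 319 and 374 with arrays centred. Trend and robust moderation gave 3 at 1 week, 747 for 8 weeks against 1 week, 95 for both durations together and 4162 for female against male, where the chosen processing gave 0, 0, 0 and 2245. The filter at the 60th percentile gave 72 for 8 weeks against 1 week and 4 for both durations together, which also had 5 with arrays centred and 3 with log2(value + 16). Female against male had 0 with no filter or least squares and 0 to 1259 with a pool left out, and the interaction had 1 with least squares. A filter at the 40th percentile of the probe sets' own means, added after the data were seen, moved none of these counts by over 1.5 times. The labels give no replicate numbers by which to pair pools. Each group held 1 female and 1 male pool, so the sex term of the model compared the groups within sex.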
